A study of Rattus norvegicus with 5 samples.

Results

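The comparison was between rat lenses kept in Bleomycin for 6 days and lenses kept in the same concentration of Bleomycin, 800 μg/mL, for 2 days. It was made over 3514 named probe sets, out of 19086 named probe sets and 36685 probe sets on the array, chosen because their log2 signal value was 5 or more in Bleomycin Day 2, in Bleomycin Day 6 or in both. A probe set is the group of probes that reads 1 transcript, and its signal value is on the log2 scale, so that a difference of 1 is a 2-fold change. Of these probe sets, 149 (4.24%) were at least 2-fold lower on Day 6 and are called falls, 21 (0.598%) were at least 2-fold higher and are called rises, and 1940 (55.2%) held, which means that they lay within 0.25 of their Day 2 signal.

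Lenses were taken from male rats of the Sprague Dawley stock, 6 weeks of age, and kept outside the body in M199 medium with bovine albumin and no serum, which was renewed each day together with the drug. There were 5 arrays, 1 per condition: Bleomycin Day 2, Bleomycin Day 6, MMS Day 2 and MMS Day 4 (methylmethanesulfonate at 1 mM for 2 or 4 days), and a Control lens held without drug for 4 days. Whole lenses were homogenized, so the RNA mixed epithelium and fiber cells, and fewer cells of a type cannot be told apart from less RNA per cell. With 1 array per condition there was no spread between replicates, no test could be made, and every difference is between single arrays. The days in culture also differed between the Bleomycin arrays, so longer exposure to the drug and longer culture cannot be told apart.

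Bleomycin binds a metal ion and, with oxygen, cuts DNA strands. Cut DNA activates the kinase ATM and through it p53, a transcription factor that switches on genes for growth arrest, repair and cell death. The lens is a mass of long fiber cells, filled with crystallin proteins and lacking organelles once mature, under a single layer of epithelium at the front and inside a capsule of basement membrane that the lens cells make themselves.

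The defining genes of lens fibers were bright in all arrays. Of 9 such genes, 6 had a probe set with a single symbol (Mip, Lim2, Gja3, Bfsp1, Grifin and Lgsn), and their lowest signal in either Bleomycin array was 7.23. The 6 defining genes of lens epithelium (Foxe3, Pax6, Cdh1, Gja1, Mab21l1 and Pdpn) all reached 5 in Control, but 3 did so in Bleomycin Day 2 and 1 in Bleomycin Day 6. Their summed signal on the linear scale was 879 in Control, 221 in Bleomycin Day 2 and 140 in Bleomycin Day 6. Most of the step between the Bleomycin arrays was Pdpn, at 97.2 and 42.9 on that scale, and the other 5 summed to 124 and 97.1. On the log2 scale Foxe3 had 4.55 in both, Gja1 had 2.76 and 3.23, and Pax6 had 4.65 and 4.37. Of 94 marker genes for retina, ciliary body, cornea, endothelium, fibroblasts, macrophages, lymphocytes, blood, muscle, and neurons or glia, 4 reached 5 in a Bleomycin array (Mitf, Ckm, Rbfox3 and Tubb3).

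Among the 3286 genes with a single symbol, whose probe sets were averaged, 143 fell (4.35%), 19 rose (0.578%) and 1811 held (55.1%). The middle of the difference lay slightly below 0, with a median of -0.10 and with 5% of probe sets under -0.95 and 5% over 0.41. The signal was lower on Day 6 for 2132 probe sets, higher for 1006 and exactly equal for 376.

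**Figure D1:**
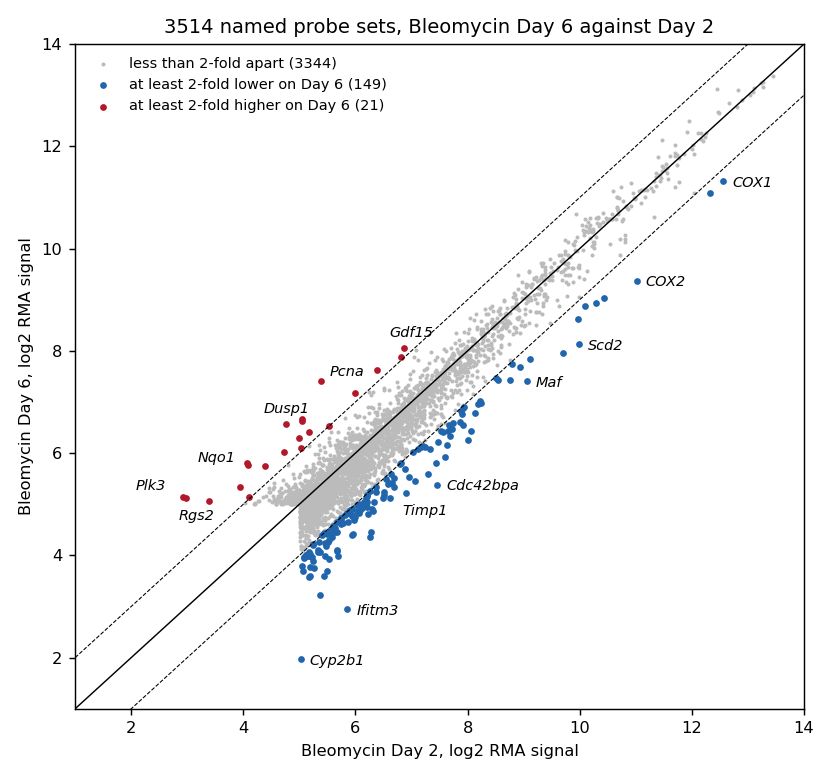
Each point is 1 of 3514 named probe sets, with its log2 signal in Bleomycin Day 2 on the x axis and in Bleomycin Day 6 on the y axis. The solid line marks equal signals and the dashed lines a 2-fold difference, past which lie 149 lower (blue) and 21 higher (red) probe sets. The brightest probe sets, above 12, lie close to the solid line except COX1 and COX3, below the lower dashed line, and Mip, just inside it.

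The signal filter itself bears on these counts. Of the 3514 probe sets, 2958 reached 5 in both arrays, 404 in Day 2 alone and 152 in Day 6 alone, and the last groups could only differ in the direction that admitted them. Among the 149 falls, 75 ended below 5 on Day 6, and among the 21 rises, 11 began below 5 on Day 2. Over the 2958 probe sets at 5 in both arrays, 74 fell and 10 rose. At the edge of the filter, Paf1 was just inside with 4.984 and 5.001 on Day 2 and Day 6, and Snx13 was just outside with 4.999 and 4.608. At the edge of the call, Nsmce2 was counted as a fall with a difference of -1.005 and Ssr1, with -0.998, was not, and Ppp1r15a was counted as a rise with 1.01 while Tspan33, just under 1, was not.

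The balance of falls and rises depended on the scale. As deposited, 87.6% of the calls were falls. Centring both Bleomycin arrays on their median over the 3514 probe sets raised every difference by 0.18 and gave 84 falls and 34 rises, or 71.2% falls. Quantile normalization of the pair gave 75 falls and 44 rises, or 63.0% falls. All 19 genes that rose kept a difference of 1.18 or more under both scalings, while 81 and 72 of the 143 genes that fell stayed past 2-fold. Centring on the probe sets of olfactory and vomeronasal receptors gave 145 falls and 22 rises, or 86.8% falls, and 139 of the 143 falling genes and all 19 rising ones stayed past 2-fold.

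**Figure D2:**
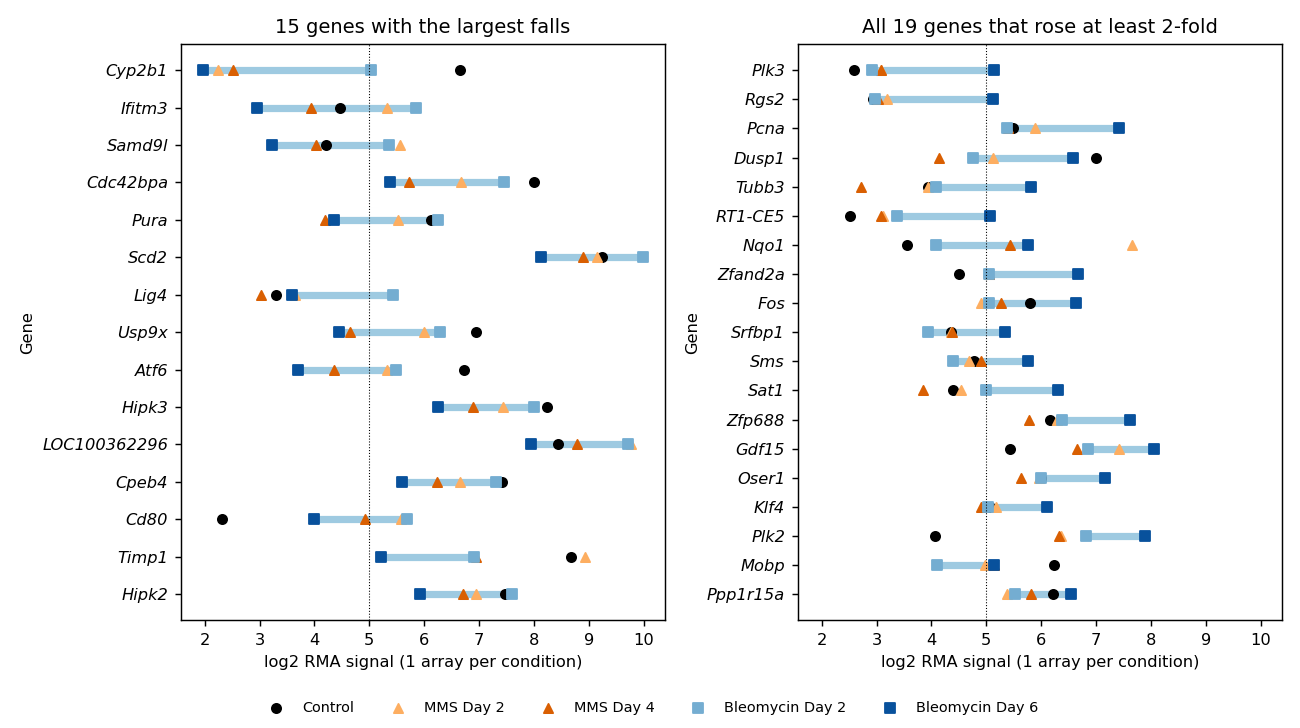
Log2 signal (x axis) in each of the 5 arrays for the 15 genes with the largest falls (left) and all 19 genes that rose at least 2-fold (right). The bar joins Bleomycin Day 2 to Bleomycin Day 6, and the dotted line is the filter at 5. For Cyp2b1, Atf6 and Cdc42bpa the Control lies above both Bleomycin arrays, and for Plk3, Plk2 and Gdf15 below both.

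The rises were led by genes of the p53 response and by immediate early genes, which cells switch on within minutes of a stimulus. Of 24 p53 targets for growth arrest and repair on the array, 12 passed the filter, of which 3 rose, 0 fell and 5 held. Their median difference was 0.36 against -0.10 over all genes, of which 0.578% rose. Plk3, a stress-activated kinase of the polo family, had 2.92 on Bleomycin Day 2 and 5.14 on Day 6, a difference of 2.23 and the largest rise of all, though it passed the filter through Day 6 alone. It stood at 2.59 in Control and at 3.08 in both MMS arrays, so Bleomycin Day 6 was the 1 array above 5.

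Pcna, the sliding clamp that holds DNA polymerase on its template in replication and repair, rose by 2.02. Its signals were 5.38 on Bleomycin Day 2 and 7.41 on Day 6, with 5.49 in Control, 5.89 in MMS Day 2 and 5.39 in MMS Day 4. Bleomycin Day 6 thus stood above the other 4 arrays, which lay close together. Plk2, a second polo-family kinase, went from 6.82 to 7.89, a rise of 1.07, and was already above the 4.06 of Control on Day 2. Cdkn1a, which codes for the cell cycle inhibitor p21, had 7.02 and 7.61 (difference 0.59), and Mdm2, the ubiquitin ligase that removes p53, had 6.60 and 7.23 (difference 0.63), short of 2-fold. Ccng1 had 11.92 and 12.28, Phlda3 6.39 and 6.74, and Tp53inp1 7.63 and 7.77. All 3 were above their Control signals of 11.53, 5.03 and 5.88 in both Bleomycin arrays. Gadd45a, Gadd45b and Ppm1d held, with differences of -0.14, -0.08 and -0.03.

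Of 20 p53 targets for death and stress signals on the array, 4 passed the filter. They did not move one way, with 1 rise, 1 fall and 1 held, and Abcb1b passed through Day 2 alone and could only be lower. Gdf15, a secreted stress hormone, had 5.44 in Control, 7.42 and 6.65 in MMS Day 2 and Day 4, and 6.86 and 8.05 in the Bleomycin arrays, a rise of 1.20. Abcb1b, a drug efflux pump, had 1.86 in Control, 5.24 on Bleomycin Day 2 and 4.21 on Day 6, a fall of 1.02 that left it well above Control. Eda2r, a death domain receptor, had 2.91 in Control, 5.82 and 5.34. Gdf15, Abcb1b and Eda2r were higher than Control in both Bleomycin arrays, and differed in which array was the higher. The fourth gene, the phosphatase Ptp4a1, held at 9.02 and 9.16, below its 10.18 in Control.

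Of 36 immediate early genes on the array, 13 passed the filter, of which 4 rose, 1 fell and 3 held, with a median of 0.34. Over all genes, 0.578% rose and 4.35% fell. Through Day 6 alone 3 of the 13 passed, Rgs2 and Dusp1 among them, and 3 through Day 2 alone, Egr1 among them. Of the 7 at 5 in both arrays, 2 rose and 0 fell, and the median was again 0.34. With a filter at 6 the median was 1.33, but Klf4, Fos and Dusp1 then passed through Day 6 alone and could only be higher. Rgs2, which shortens signalling by G proteins, had 2.98 on Day 2 and 5.11 on Day 6, against 2.93 to 3.18 in the other 3 arrays. Dusp1, a phosphatase that switches off MAP kinases, went from 4.75 to 6.58 (difference 1.82), close to the 6.99 of Control. Fos, a subunit of the transcription factor AP-1, went from 5.05 to 6.64 (1.58), against 5.80 in Control, and Klf4 from 5.03 to 6.11 (1.08), against 5.07 in Control. For Dusp1 the MMS arrays stood lower, at 5.12 on Day 2 and 4.15 on Day 4. Zfp36, which speeds the decay of short-lived mRNAs, had 4.80 and 5.76, just short of 2-fold. Egr1, also an early gene, went the other way, from 5.47 to 4.19, a fall of 1.28, with 6.45 in Control.

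The stress genes outside these lists rose singly. Zfand2a, a heat-inducible helper of protein degradation, was at 5.04 in both MMS arrays and in Bleomycin Day 2, and at 4.50 in Control. In Bleomycin Day 6 it was at 6.67, a rise of 1.62. Of 35 heat shock genes on the array, 22 passed the filter, and the other 21 of these lay between -0.65 and 0.49 (15 of the 22 held). Nqo1, an NRF2 target that reduces quinones, rose by 1.68, from 4.08 to 5.76, with 3.55 in Control. It passed the filter through Day 6 alone and could only be higher. The other 16 of 17 NRF2 targets did not reach 2-fold, from Gclm at -0.66 to Trib3 at 0.73. Ppp1r15a, which restarts translation under stress, went from 5.52 to 6.54 (1.01). In the same list of 18 ATF4 genes, Vegfa (6.51 and 5.18) and Psat1 (7.53 and 6.43) fell by 1.33 and 1.10, and the median of the list was -0.01. Sqstm1, the autophagy receptor p62, had 6.23 and 7.19, a difference of 0.96.

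The polyamine genes Sat1, which acetylates spermidine and spermine for export, and Sms, which makes spermine, both rose. They were picked from the rises and not from a list of polyamine genes. Both passed the filter through Day 6 alone and could only be higher. Sat1 had 4.39 in Control, 4.55 and 3.85 in MMS Day 2 and Day 4, and 4.99 and 6.30 in Bleomycin Day 2 and Day 6 (difference 1.31). Sms had 4.38 and 5.76 in the Bleomycin arrays (1.37) and 4.69 to 4.90 in the other 3. In both genes the Bleomycin Day 6 array was the highest of the 5. The remaining rises were Tubb3 (4.07 and 5.81), a tubulin best known from neurons, RT1-CE5 (3.38 and 5.06), Srfbp1 (3.93 and 5.33), Zfp688 (6.38 and 7.62), Oser1 (5.99 and 7.17) and Mobp (4.10 and 5.14). Of these, Tubb3, RT1-CE5, Srfbp1 and Mobp also passed through Day 6 alone and could only be higher. RT1-CE5 belongs to the MHC class I family, whose copies are alike in sequence, so its probe set may read other members too.

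RefSeq promoter windows of assembly GRCr8, from 250 bases before to 50 bases after the start of each gene, were matched by gene ID to 17 of the 19 genes that rose, 116 of the 143 that fell and 2772 of the 3286 in all. The cyclic AMP response element TGACGTCA, searched after the rises were seen and together with 5 other motifs, was in the windows of 3 genes that rose (17.6%), 2 that fell (1.72%), 109 of all 2772 (3.93%) and 549 of all 27457 genes of the promoter table (2.00%). The 3 genes were Dusp1, Plk2 and Ppp1r15a, and 60 bases around each element are printed here because they are what these promoters had in common, with the element in capitals.
Dusp1, chr10:17184703-17184762, plus strand: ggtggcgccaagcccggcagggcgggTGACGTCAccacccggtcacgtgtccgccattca
Plk2, chr2:43702444-43702503, plus strand: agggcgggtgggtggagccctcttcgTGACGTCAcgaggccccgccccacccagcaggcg
Ppp1r15a, chr1:105139629-105139688, minus strand: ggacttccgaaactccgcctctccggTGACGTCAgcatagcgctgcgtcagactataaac
The element began 124 bases before the start of Dusp1 and 66 bases before the starts of Plk2 and Ppp1r15a. A match is a description of the letters and does not show that a factor was bound.

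The other 5 motifs were read on both strands in the same windows. The AP-1 site TGACTCA was in 11.8% of the genes that rose, 4.31% of those that fell and 3.68% of all 2772, and the antioxidant element TGACNNNGC in 29.4%, 14.7% and 16.5%. The shares were 52.9%, 37.9% and 39.1% for CCAAT, 23.5%, 7.76% and 7.86% for TATAAA, and 11.8%, 7.76% and 11.1% for the E-box CACGTG. The cyclic AMP, AP-1 and antioxidant motifs share the letters TGAC and can overlap. With 17 genes, 1 gene is worth several percent, and Nqo1 had no antioxidant element in its window while Zfand2a, Gdf15, Rgs2, Oser1 and Ppp1r15a did. The GC content of the windows had medians of 60.0%, 62.2% and 61.3% for the genes that rose, fell and held.

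The largest falls were Cyp2b1, Ifitm3 and Samd9l, all of which passed the filter through Day 2 alone and could only be lower. Cyp2b1, a cytochrome P450 of drug metabolism, had 6.65 in Control, 5.02 on Bleomycin Day 2 and 1.97 on Day 6, a difference of -3.06, and it entered the comparison through a Day 2 signal barely above the filter. It was already at 2.24 and 2.52 in MMS Day 2 and Day 4. Ifitm3, a membrane protein that blocks virus entry, went from 5.85 to 2.95 (-2.91) and Samd9l, an interferon-induced growth inhibitor, from 5.36 to 3.22 (-2.14), with Control at 4.46 and 4.21. For both genes the Day 2 signal was above Control and the Day 6 signal below it. A further probe set of each gene did not reach the filter and had a difference of -0.21 for Ifitm3 and 0.08 for Samd9l. Of 45 interferon and MHC class I genes on the array, 6 passed the filter, of which 2 fell (Ifitm3 and Samd9l), 1 rose (RT1-CE5) and 1 held, and B2m, the light chain of MHC class I, had 7.34 and 6.73.

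Of 28 genes of the lens capsule and matrix on the array, 10 passed the filter, and of these 4 fell, 1 held and 0 rose. The filter bears on this count, since 4 of the 10 (Plod2, Col4a1, Col4a2 and Plod1) passed through Day 2 alone and could only be lower. The other 6 were lower too, and 3 of them fell. The median was -0.95 against -0.10 over all genes, but -0.67 with a filter of 5 in any of the 5 arrays and -0.23 with no filter. Timp1, an inhibitor of matrix metalloproteinases, had 8.67 in Control, 6.90 on Bleomycin Day 2 and 5.22 on Day 6 (-1.68). Plod2, which hydroxylates collagen lysines, had 7.32, 5.26 and 3.75 (-1.51). Nid1, the nidogen that links laminin to collagen in basement membranes, had 8.38, 7.63 and 6.16 (-1.47), and Sparc, a collagen-binding matrix protein, had 10.01, 8.54 and 7.42 (-1.11). In all 4 genes the order was Control, Day 2, Day 6. The basement membrane collagens Col4a1 (7.67, 5.28 and 4.61) and Col4a2 (5.99, 5.18 and 4.46) kept that order but had the larger step between Control and Day 2. The summed signal of the epithelial markers was lower on Day 6 as well, mainly through Pdpn, while Foxe3 was equal and Gja1 higher, and its part in these falls was not tested.

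Of 26 genes of the wider lens epithelium list on the array, 11 passed the filter, of which 1 fell, 5 held and 0 rose. Over all genes 4.35% fell, 55.1% held and 0.578% rose. The median of the list was -0.31, or -0.63 with a filter at 6. Cdh1 and Mab21l1 passed through Day 2 alone and could only be lower. Of the 8 at 5 in both arrays, 1 fell and 0 rose, with a median of -0.28. Pdpn, podoplanin, fell from 6.60 to 5.42 (-1.18), with 7.04 in Control. Cdh1, E-cadherin, had 8.26 in Control, 5.07 on Day 2 and 4.40 on Day 6, and Mab21l1 had 6.82, 5.12 and 4.49. Both had thus lost more signal between Control and Day 2 than between Day 2 and Day 6. Clu, the secreted chaperone clusterin, had 12.07, 10.26 and 10.02, and Aqp1, a water channel of the epithelium, 6.98, 5.02 and 5.20.

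Among 8 lens transcription factors, 3 of which passed the filter through Day 2 alone, 2 fell, 3 held and 0 rose. The shares over all genes were 4.35% that fell and 55.1% that held. Maf, which drives crystallin genes in fiber cells, had 9.24 in Control, 8.78 and 8.37 in MMS Day 2 and Day 4, and 9.06 and 7.40 in the Bleomycin arrays, a fall of 1.66. Bleomycin Day 6 was the lowest of the 5 arrays. Sox2 fell from 5.51 to 4.25 (-1.26), with 6.42 in Control. Six3 had 6.52 and 5.74 and Prox1, needed for fiber elongation, 7.84 and 7.24, short of 2-fold. Hsf4, the heat shock factor of lens fibers, had 8.29 in both Bleomycin arrays and 8.31 in Control.

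The crystallins and most other abundant fiber genes held. Of 7 gamma crystallins, 6 held and 0 fell or rose, with a median of 0.00. Crygd had 13.28 on Day 2 and 13.16 on Day 6, Crygc 12.90 and 12.90, and Crygs 12.67 and 12.85. Crygf, at 11.77 and 11.31, had the largest difference among them (-0.46). Cryab, a small heat shock protein and crystallin, had 13.27 and 13.26, Cryba1 13.45 and 13.37, and Cryba2 13.23 in both. The highest signal of any probe set was between 13.55 and 13.60 in the 5 arrays, so these genes sat near the top of the measured range, where a change would be hard to see. Crybg3, named for its crystallin fold but dim here, fell from 5.07 to 3.97 (-1.11).

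Of 17 genes for the fiber membrane and cytoskeleton, 2 fell, 7 held and 0 rose, with a median of -0.26. The shares over all genes were 4.35% that fell, 55.1% that held and 0.578% that rose. Bfsp1, a beaded filament protein, held at 11.86 and 11.84, Lim2, a fiber membrane protein, at 11.49 and 11.60, and Grifin, a lens galectin, at 13.11 and 13.15. Both falls were in the membrane skeleton: Ank2, an ankyrin, went from 8.05 to 6.43 (-1.63) and Sptbn1, a spectrin, from 8.94 to 7.68 (-1.26). Sptan1, the partner spectrin, had 7.91 and 6.93 (-0.98). Mip, the water channel of fiber cells, had 11.45 in Control, 12.04 on Bleomycin Day 2 and 11.09 on Day 6, a difference of -0.95, so that Day 6 was below Control and Day 2 above it. Cdh2, N-cadherin, had 8.14, 7.48 and 6.52, and Gja3, connexin 46, had 8.35, 7.98 and 7.23.

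**Figure D3:**
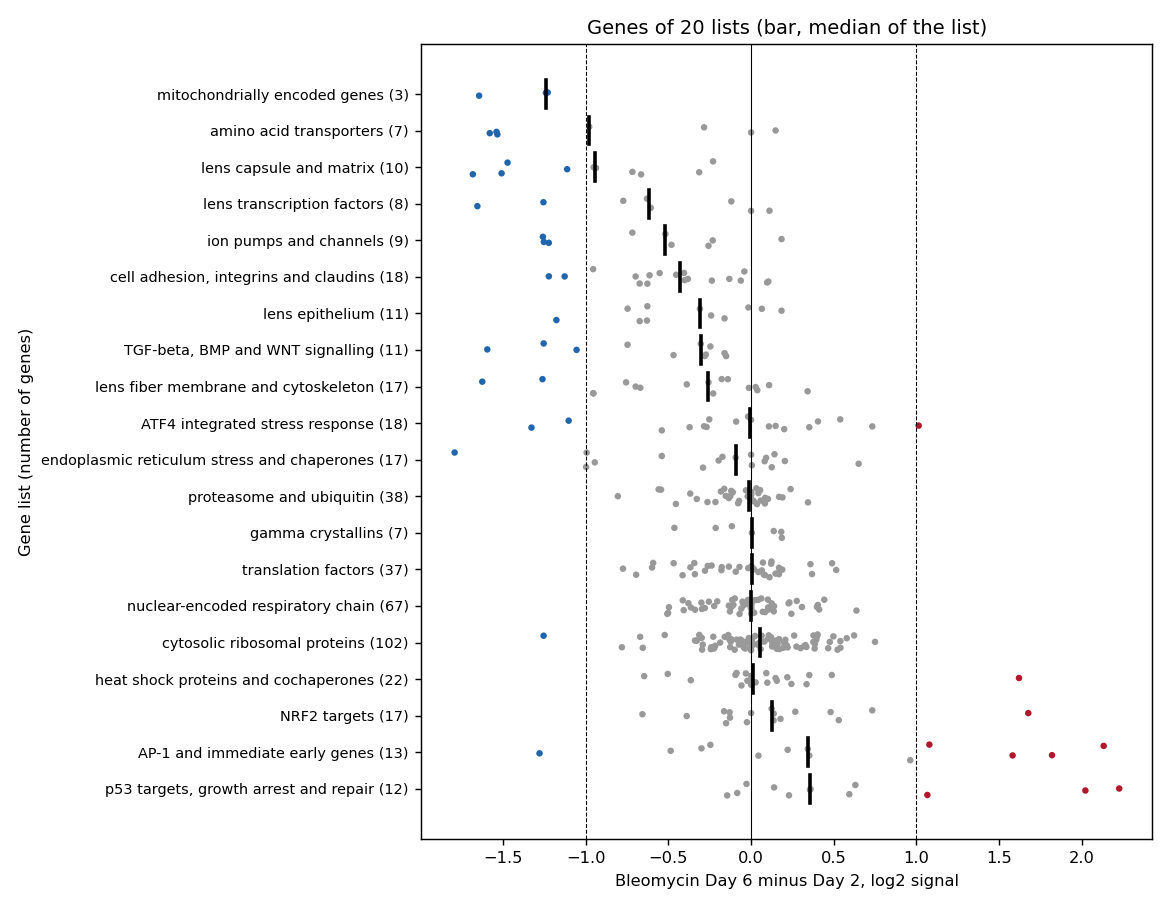
Each point is 1 gene of a list, placed on the x axis by its difference in log2 signal (Bleomycin Day 6 minus Day 2), blue where it fell and red where it rose at least 2-fold, with a black bar at the median of the list. Medians run from -1.24 (3 mitochondrially encoded genes) to 0.36 (12 p53 targets), and the 4 lists of crystallins, translation factors, respiratory chain and ribosomal proteins sit at or near 0.

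The mitochondrially encoded genes and the nuclear genes of the respiratory chain differed. The measured genes of the mitochondrial genome were COX1, COX2 and COX3, the core subunits of cytochrome oxidase, and all 3 fell. COX1 had 12.59 in Control, 12.56 in Bleomycin Day 2 and 11.32 in Bleomycin Day 6 (-1.24), COX2 had 11.23, 11.01 and 9.37 (-1.65), and COX3 had 12.48, 12.32 and 11.09 (-1.23). Bleomycin Day 2 was within 0.25 of Control in all 3. In MMS Day 2 and Day 4 they had 11.95 and 10.96 (COX1), 10.23 and 8.77 (COX2) and 11.78 and 10.64 (COX3). Of 67 nuclear genes of the respiratory chain, 0 fell, 0 rose and 48 held, with a median of 0.00 and a range from -0.51 to 0.64. Of 41 mitochondrial ribosomal proteins, 31 held and none was called.

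Of 32 transporters of amino acids on the array, 7 passed the filter, of which 3 fell, 2 held and 0 rose, where 4.35% of all genes fell. The median was -0.98, but -0.018 with no filter. Slc7a8, which carries neutral amino acids, had 8.90 in Control, 5.67 in Bleomycin Day 2 and 4.09 in Bleomycin Day 6 (-1.58). Slc7a2, which carries arginine and lysine, had 7.09, 5.94 and 4.40 (-1.54), and Slc6a8, the creatine transporter, 4.63, 5.96 and 4.42 (-1.54). All 3 ended below 5, so they passed the filter through Day 2 alone and could only be lower. Of the 4 at 5 in both arrays, 0 fell. Slc38a3, a glutamine carrier, had 7.45 and 6.47, short of 2-fold, while Slc38a2 had 6.85 in both and Slc3a2, the shared heavy chain, 7.37 and 7.52. With a filter at 6, or at 5 in both arrays, the median of this list was -0.14, since the genes that fell were then left out.

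Among 9 ion pumps and channels, 3 of which passed the filter through Day 2 alone, 3 fell, 2 held and 0 rose. For these and the next lists, 4.35% of all genes fell. Atp2a2, the calcium pump SERCA2, went from 5.23 to 3.97 (-1.26), and Pln, phospholamban, which restrains that pump, from 6.50 to 5.25 (-1.25), with Control at 5.38 and 3.54. Pln was thus above Control and Atp2a2 below it on Day 6. Clic5, a chloride channel protein, fell from 10.10 to 8.87 (-1.22). Of 49 genes of TGF-beta, BMP and WNT signalling on the array, 11 passed the filter and 3 of them fell: the receptor Acvr2a (5.17 and 3.58), the ligand Tgfb2 (5.04 and 3.79) and the secreted Dkk3 (8.80 and 7.74). Acvr2a, Tgfb2 and Bmpr2 passed through Day 2 alone and could only be lower. The other 8 were lower as well, where 61.1% of all 3286 genes were lower by any amount. Of 18 adhesion genes, 5 of which passed through Day 2 alone, Tjp1, the tight junction scaffold ZO-1 (7.65 and 6.43), and Alcam (5.74 and 4.61) fell.

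Stress and repair genes were also among the falls, which made up 4.35% of all genes. Atf6, Lig4 and Xrcc5 passed the filter through Day 2 alone and could only be lower. Of 32 genes for double-strand break repair on the array, 4 passed the filter. Of the 2 of these at 5 in both arrays, 0 fell. Atf6, a sensor of misfolded protein in the endoplasmic reticulum, had 6.73 in Control, 5.49 on Day 2 and 3.69 on Day 6 (-1.79), while 10 of the 17 genes in its list held, among them the chaperone Hspa5 (7.65 and 7.78). Lig4, the ligase that closes double-strand breaks in end joining, had 3.30 in Control, 3.65 and 3.02 in MMS Day 2 and Day 4, and 5.43 and 3.59 in the Bleomycin arrays (-1.84). Bleomycin Day 2 was thus the 1 array in which it passed 5. Xrcc5, which codes for Ku80 of the same pathway, had 5.64 and 4.68 (-0.97), and Xrcc6, for Ku70, had 6.07 and 5.96.

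In metabolism, Scd2, a desaturase of fatty acids, had 9.23 in Control, 9.99 on Day 2 and 8.13 on Day 6 (-1.86), and Lpin1, which makes diacylglycerol, had 8.09, 8.51 and 7.46 (-1.05). Of 13 genes of fatty acid and sphingolipid synthesis these 2 fell and 7 held, where 4.35% of all genes fell and 55.1% held. Gpi, a glycolytic enzyme, fell from 9.12 to 7.85 (-1.27), and the other 16 of the 17 genes in its list did not reach 2-fold. Mt2A, a metallothionein that binds zinc and copper, had 10.27 in Control, 9.98 and 9.49 in MMS Day 2 and Day 4, and 5.19 and 4.02 in the Bleomycin arrays. Its fall of 1.16 followed a far larger gap between Control and Bleomycin Day 2, and both MMS arrays stood nearer to Control. A second probe set of Mt2A, under the filter, had 6.59 in Control but 5.57 and 3.97 in MMS Day 2 and Day 4. Its Bleomycin signals were 2.08 and 1.36, a difference of -0.72.

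Other genes among the 15 largest falls sat in no pathway list. They were Cdc42bpa, a kinase of the actin skeleton (7.46 and 5.38), Usp9x, a deubiquitinase (6.28 and 4.45), Pura, a nucleic acid binding protein (6.25 and 4.36), the kinases Hipk3 (8.01 and 6.25) and Hipk2 (7.59 and 5.93), which phosphorylates p53, Cpeb4, a regulator of mRNA translation (7.30 and 5.59), and the uncharacterized locus LOC100362296 (9.70 and 7.95). Cd80, known as a costimulatory ligand of T cells, went from 5.69 to 3.99, against 2.32 in Control, and its second probe set, under the filter, had a difference of -0.41. Except for Cd80, the Day 6 signals were below Control in all of them. Usp9x, Pura and Cd80 passed the filter through Day 2 alone and could only be lower. Over the 143 genes that fell, Control was above both Bleomycin arrays for 90, between them for 49 and below both for 4, and over the 19 that rose the numbers were 2, 7 and 10.

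The genes that make and remove proteins gave few calls, and the share that held is to be read against the 55.1% of all genes. Of 102 cytosolic ribosomal protein genes 68 (66.7%) held and 1 was called, the copy Rpl28l3 (7.73 and 6.47), and the median was 0.05. Many of these probe sets carry names of pseudogenes and near copies, so their signals may be shared. Of 37 translation factors 22 (59.5%) held and 0 were called, from Eif4g3 at -0.78 to Eif4b at 0.52. Of 38 proteasome and ubiquitin genes 30 (78.9%) held and 0 were called, and of 18 tRNA synthetases 13 (72.2%) held and 0 were called. Ftl1, the ferritin light chain (13.09 and 13.07), Eef1a1 (12.48 and 12.64) and Rps29 (12.23 and 12.29) were among the 10 brightest genes that held, with 6 crystallins and Grifin.

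The falls were more frequent among genes that span more of the genome. The span, from the first to the last base of the gene with its introns, was taken from the RefSeq annotation of GRCr8 for 3348 of the 3514 probe sets (95.3%). In 5 groups of equal size from the shortest genes (up to 5.55 kb) to the longest (51.4 kb or more), 1.64%, 1.79%, 2.39%, 3.14% and 11.8% of the probe sets fell. The numbers behind these shares were 11, 12, 16, 21 and 79. The median differences were 0.00, 0.00, -0.07, -0.17 and -0.40. The median span was 63.4 kb for the falls, 14.6 kb for the held probe sets and 5.47 kb for the rises.

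**Figure D4:**
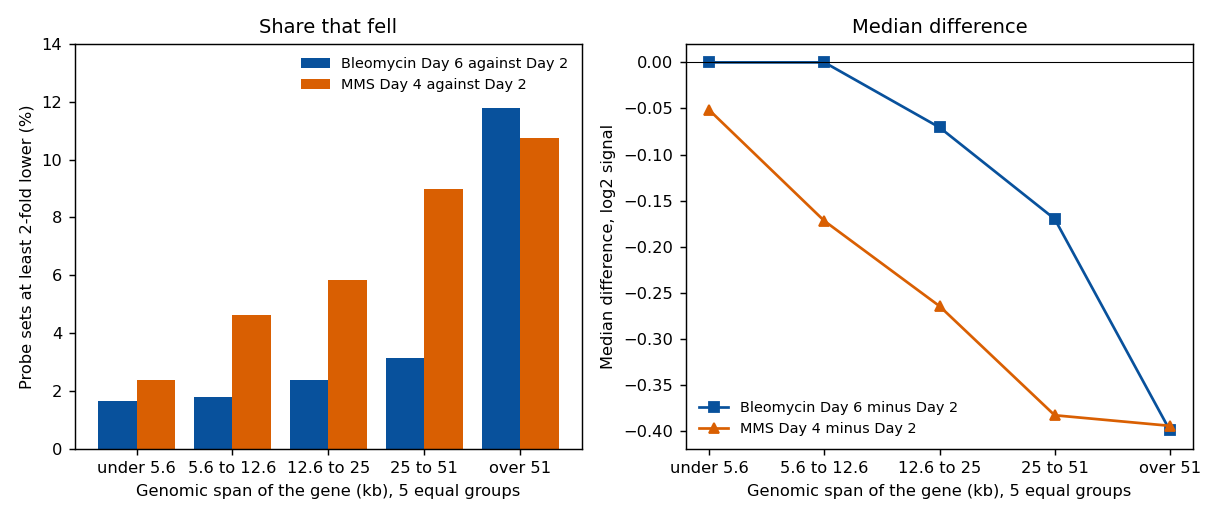
The left panel gives the percentage of probe sets at least 2-fold lower and the right panel the median difference in log2 signal, in 5 groups of genes by genomic span in kb (x axis), for Bleomycin (blue) and MMS (orange). The Bleomycin share is 1.64% in the shortest group and 11.8% in the longest, and the MMS share 2.39% and 10.7%.

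The median signal of the 5 groups ran from 6.50 in the shortest genes to 5.62 in the longest, so the groups differed in brightness too. Split by mean signal over the range of 5 or more, the same order of ends was seen from 5 to 7 and at 7 or more. Probe sets with a mean signal under 5, of which 41 of 292 fell, were not split by span. For signals from 5 to 7, 0.270% of the shortest and 8.91% of the longest group fell, and for signals of 7 or more, 1.52% (4 of 264) and 20% (17 of 85). Ank2 (576 kb), Maf (363 kb), Cdc42bpa (220 kb), Atf6 (180 kb) and Sptbn1 (175 kb) were long genes that fell. Short genes fell as well, among them Ifitm3 (1.11 kb), Egr1 (3.80 kb) and Timp1 (6.07 kb). Of the genes that rose, Rgs2 (2.60 kb), Dusp1 (2.79 kb), Fos (2.87 kb) and Ppp1r15a (3.08 kb) were short, and RT1-CE5 (76.3 kb) and Sms (56.0 kb) long.

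MMS Day 4 against MMS Day 2 is a second comparison of longer with shorter exposure that shares no array with the first, but its drug, dose and days differ, so the values are set side by side. Over the same 3514 probe sets 231 fell (6.57%) and 5 rose (0.142%) in MMS, with a median of -0.25. The probe sets that fell in both numbered 38, which is 25.5% of the 149 Bleomycin falls and 16.5% of the 231 MMS falls. Over all 3514 probe sets, 2616 (74.4%) were lower on MMS Day 4 by any amount. Against that background, 143 of the 149 Bleomycin falls (96.0%) and 14 of the 21 Bleomycin rises (66.7%) were lower there. None of the 21 reached 2-fold higher in MMS, where 5 probe sets of all 3514 did.

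The genes that fell in both included Ifitm3 (-2.91 in Bleomycin and -1.38 in MMS), Samd9l (-2.14 and -1.53), Timp1 (-1.68 and -1.99), Slc7a8 (-1.58 and -2.02), COX2 (-1.65 and -1.46) and Usp9x (-1.83 and -1.35). Of these, Ifitm3, Samd9l, Slc7a8 and Usp9x passed the filter through Bleomycin Day 2 alone and could only be lower in Bleomycin. Cyp2b1 (-3.06 and 0.28), Scd2 (-1.86 and -0.26), Maf (-1.66 and -0.41) and Clic5 (-1.22 and -0.03) fell past 2-fold in Bleomycin without doing so in MMS. By list, the median of the p53 targets for growth arrest was 0.36 in Bleomycin and -0.48 in MMS, of the lens epithelium list -0.31 and -0.81, of the matrix list -0.95 and -0.66, and of the translation factors 0.00 and -0.37. The share of the longest genes that fell was close in both (11.8% and 10.7%), while in the 3 middle groups it was 4.63% to 8.97% in MMS and 1.79% to 3.14% in Bleomycin. None of these differences between the drugs was tested.

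**Figure D5:**
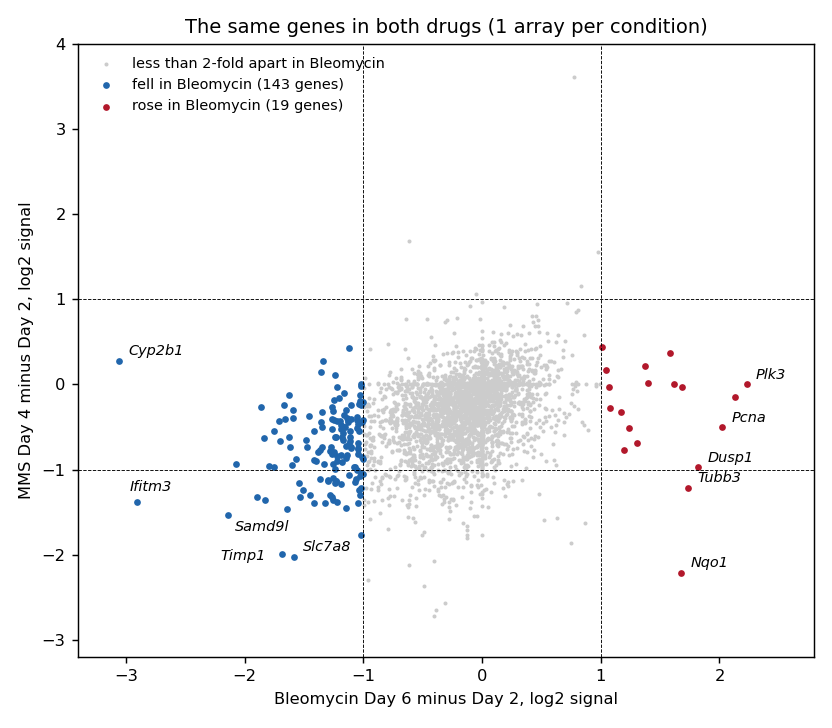
Each point is 1 of 3286 genes, with its difference between Bleomycin Day 6 and Day 2 on the x axis and between MMS Day 4 and Day 2 on the y axis, both in log2 signal, and dashed lines at 2-fold. Most of the 143 genes that fell in Bleomycin (blue) lie below 0 on the y axis, as do most genes, and the 19 that rose (red) lie between -2.21 and 0.44 there, with Nqo1 and Tubb3 below the lower dashed line.

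Of the genes that the study followed by RT-qPCR, 36 were on the array with a single symbol and 23 passed the filter. Of these, 5 fell (Samd9l, Cd80, S100a11, Pln and Abcb1b), 3 rose (Nqo1, Gdf15 and Plk2) and 6 held. Over all genes 4.35% fell and 0.578% rose. Samd9l, Cd80, Abcb1b, Rbm3, Gpd1 and Fosl1 passed through Day 2 alone and could only be lower. Nqo1 and Gga2 passed through Day 6 alone and could only be higher. Of the 15 at 5 in both arrays, 2 fell and 2 rose. The study had chosen its RT-qPCR genes on these arrays for a higher signal in MMS than in Control, so they are no independent sample. S100a11, a calcium-binding protein, had 9.19 in Control, 10.44 on Bleomycin Day 2 and 9.04 on Day 6 (-1.40). Rbm3, a cold-inducible RNA-binding protein, had 4.74, 5.94 and 4.999, and Gpd1, glycerol-3-phosphate dehydrogenase, 4.58, 5.16 and 4.22. In these genes Bleomycin Day 2 was the highest of the 3 arrays and Day 6 lay within 0.5 of Control. Atf3, a stress-induced transcription factor, had 4.95, 5.52 and 5.87.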

How the data were processed

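The study measured whole-lens RNA on Rat Gene 2.0 ST arrays, 1 per condition. The deposited values are log2 signals, for which the authors had applied RMA in R. RMA removes background, gives the arrays a common distribution and summarizes each probe set, so a loss of RNA common to all genes would not be seen. They were used as deposited. Gene symbols came from the platform annotation (18511 probe sets with 1 symbol, 575 with several) and spans and promoters from RefSeq tables of GRCr8, where 18394 of the 18511 were found by gene ID.

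Python 3.11.15 (numpy 2.4.6, pandas 2.3.3) was used for differences, counts at 2-fold (and within 0.25 for held) and list medians over genes, and the steps were tested on simulated data. Named genes are the 15 largest falls and rises, up to 5 genes of each list with the largest difference, called genes of the lists, the 10 brightest held genes and the study's RT-qPCR genes. Some genes were named outside this rule and after their values were seen. They were Aqp1, Ccng1, Clu, Col4a1, Col4a2, Gadd45a, Hmox1, Hsf4, Hspa5, Phlda3, Ppm1d, Slc38a2, Slc3a2, Tp53inp1 and Mobp. Named likewise were the fiber markers Bfsp1, Lgsn and Lim2, the epithelial markers Foxe3, Gja1 and Pax6, and the genes at the filter and fold thresholds. The alternatives were other signal filters, scalings and folds. The members and lists were chosen with earlier results of these data known, and the span and promoter comparisons were added after the data were seen.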

Additional observations from a re-analysis of the deposited data

Results flagged for a closer look

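For 2 genes the difference with longer exposure was at least 2-fold in both drugs and in opposite directions. Both genes passed the filter through Bleomycin Day 6 alone, so in Bleomycin they could only be higher on Day 6. Nqo1 was 1.68 higher in Bleomycin Day 6 than in Bleomycin Day 2 (4.08 and 5.76) while its MMS signal dropped by 2.21 between Day 2 (7.64) and Day 4 (5.43), so MMS Day 2 had the highest signal of the 5 arrays. Tubb3 was 1.73 higher in Bleomycin Day 6 (4.07 and 5.81) while its MMS signal dropped by 1.21 (3.93 and 2.71), where both MMS signals were under 5. With 1 array per condition, neither difference between the drugs was tested.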

How the results depend on the processing

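Filters and scaling moved the counts. Without a signal filter, 236 probe sets were lower, 102 higher and 13027 held, the medians of the matrix and amino acid transporter lists were -0.23 and -0.018, that of the cytokine and secretome list turned from -0.38 to 0.010, and 2.47% of the longest and 0.897% of the shortest genes fell. With a filter at 6 there were 86 lower, 13 higher and 1007 held, and the medians were -0.63 (lens epithelium), 1.33 (immediate early genes) and -0.14 (amino acid transporters). At that filter the early genes Klf4, Fos and Dusp1 passed through Day 6 alone. With 5 in both Bleomycin arrays there were 74 lower and 10 higher, the transporter median was -0.14, and 7.46% of the longest and 0.533% of the shortest genes fell. With 5 in any of the 5 arrays the matrix median was -0.67. Centring on the median gave 84 lower, 34 higher and 6.72% of the longest genes, and quantile normalization 75 lower, 44 higher, 6.57% of the longest and 0.896% of the shortest genes. At 1.5-fold there were 488 lower and 80 higher. Of 239 named genes, 188 moved by 0.25 or less under every filter and scaling tried that kept them. The medians of the 12 lists compared most closely moved by 0.25 or less except where given above. No paired analysis was possible because each condition had 1 array. Signals under 5 lie near the array medians of 2.84 to 3.02, so the size of a difference that ends there is uncertain.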

Other observations

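Probe sets without a gene name were left out above. Of 17599 such probe sets, 2330 reached 5 in a Bleomycin array, of which 238 (10.2%) were at least 2-fold lower and 178 (7.64%) at least 2-fold higher on Day 6, with a median difference of -0.04. Both shares were larger than those of the named probe sets, and the gap on the rising side was the wider.

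Among gene groups not yet described, 17 histone genes gave 0 calls, from Hist1h2af at -0.85 to Hist2h2bb at 0.81, and 15 microRNA genes gave 0 calls, from Mir761 at -0.40 to Mir346 at 0.77. Hmox1, heme oxygenase, had 10.11 in Control and 7.26 and 7.39 in the Bleomycin arrays. Pvalb, a calcium buffer, had 3.83 in Control and MMS Day 2, 7.44 in MMS Day 4, and 6.51 and 7.28 in Bleomycin Day 2 and Day 6.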
